A study of Caenorhabditis elegans with 4 samples.

Results

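The 10 genes described here encode the enzymes of the methionine cycle and methyltransferases that use its product, S-adenosylmethionine (SAM), in Caenorhabditis elegans. They are sams-1, sams-3, sams-4, metr-1, mthf-1, ahcy-1, pmt-1, pmt-2, prmt-1 and prmt-5, and they were taken by name from the 46766 genes of the deposited table. All 10 were found, and the gene descriptions in that table gave each of them the enzyme that its name implies. The list was drawn up with genes selected on their counts in these same libraries, GNC against control, and those counts include every value of the 10 genes below. Their differences between the groups are therefore given as a description, without a p-value.

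RNA came from synchronized whole worms of the wild-type strain N2, all 22 days old, fed E. coli OP50. One group received Gengnianchun (GNC), a mixture of water extracts of crude herbs, at 3.94 mg/mL, and the control group received water (H2O) as the vehicle. The protocols name S-complete liquid medium, whereas the design text of the series names NGM. Each group had 2 RNA-seq libraries, and no source says whether the replicates were separate cultures, so the tests measure only the spread between these libraries. In RNA from whole worms, fewer cells of a type and less RNA per cell cannot be told apart.

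The methionine cycle supplies methyl groups to the cell. SAM synthetases join methionine to ATP, methyltransferases pass the methyl group of SAM to lipids, proteins, RNA and small molecules, and the product S-adenosylhomocysteine (SAH) is split to homocysteine. Methionine synthase, which needs vitamin B12 and a methyl group from the folate cycle, turns homocysteine back into methionine. In worms, much of the SAM in lipid metabolism is spent on phosphatidylcholine, and loss of sams-1 is known to lower phosphatidylcholine, to activate the lipogenic factor SBP-1 and to lengthen life.

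Total counts ranged from 18639631 to 21753657 per library. Normalized counts (CPM) are counts relative to the library size as scaled by the TMM method. Differences are log2 fold changes of GNC over control, fitted with edgeR to the 16341 genes left after filtering out low counts. All 10 genes passed this filter, with means over the 4 libraries from 61.0 to 873 CPM. The lowest of them, pmt-2, stood at percentile 74.8 of the mean CPM of the genes tested, and ahcy-1 stood at percentile 99.4. Both GNC libraries lay below both control libraries in 5 genes (sams-1, metr-1, mthf-1, ahcy-1 and prmt-1), above them in 2 (sams-4 and pmt-2), and the groups overlapped in 3 (sams-3, pmt-1 and prmt-5). Among all genes tested, 34.5% lay lower without overlap and 36.5% higher.

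With the false discovery rate (FDR) taken over the whole table, 5 of the 10 genes were lower with GNC and 1 was higher at a limit of 0.05, where the background was 20.5% and 19.8% of all genes. Since the genes are abundant, the genes with a mean of at least 50 CPM, a level set after the values were seen, are a closer background. Of these 4753 genes, 39.2% were lower and 13.2% higher at that FDR, and 57.3% were lower and 21.9% higher without overlap. The 5 lower genes included sams-1, which was below that FDR in 6 of 13 alternatives. The count of 10 genes is read no further against these shares. None of the 10 genes differed 2-fold at that FDR: the count was 0 with edgeR, DESeq2 and limma, while in edgeR 7 of the genes passed 0.05 before adjustment, as did 48.6% of all genes tested. Nothing is read from that count, since the genes were selected on these counts. Among all genes tested, 4.97% were at least 2-fold higher and 2.23% at least 2-fold lower at that FDR. The median log2 fold change was -0.15 over the 10 genes, 0.02 over all genes tested and -0.12 over the genes with at least 50 CPM.

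**Figure D1:**
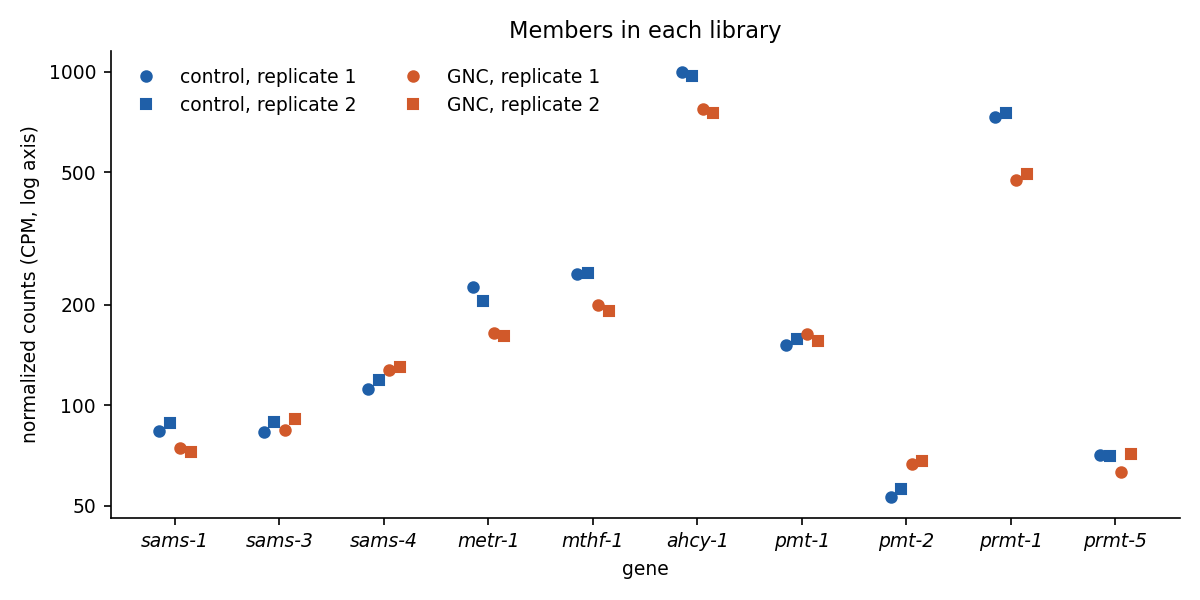
Normalized counts (CPM, log axis) of the 10 genes in each of the 4 libraries, with blue symbols for control, orange symbols for GNC, circles for replicate 1 and squares for replicate 2. The replicates lie close together in every gene, and the widest gap between the groups is in prmt-1, from 731 and 754 CPM in control to 475 and 493 CPM with GNC.

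SAM synthetases. The genes sams-1, sams-3 and sams-4 encode SAM synthetases that catalyse the same reaction, and they did not move together. For sams-1 (WBGene00008205, chromosome X, 11965962 to 11969784), the control libraries had normalized counts of 83.9 and 88.5 CPM, against 74.4 and 72.3 CPM with GNC. Both GNC libraries were lower, with a log2 fold change of -0.23 (standard error 0.06), or 14.9% less. For sams-4 (WBGene00015540, chromosome IV, 5843982 to 5846369), they were 112 and 119.4 CPM in control and 127 and 131 CPM with GNC. Here both GNC libraries were higher, with a log2 fold change of 0.16 (standard error 0.06). For sams-3 (WBGene00015538, chromosome IV, 5848657 to 5850849), they were 83.5 and 89.3 CPM in control and 84.4 and 91.3 CPM with GNC, so the groups overlapped, with a log2 fold change of 0.02 (standard error 0.07). The genes sams-4 and sams-3 are neighbours on opposite strands, 2287 bases apart.

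The remaining SAM synthetase gene, sams-5 (WBGene00006416, chromosome IV, 6277435 to 6279531), is not one of the 10 genes and belongs to a list of other cycle genes described below. It had 54.1 and 55.2 CPM in control and 76.6 and 76.8 CPM with GNC. It rose by 0.49 on the log2 scale, with a standard error of 0.06 (adjusted p = 0.000274 with the quasi-likelihood test of edgeR and the Benjamini-Hochberg method over the whole table). The 4 genes form a family of related sequences, so the counting could have split reads between them, and how reads with several matches were handled is not given in the sources used here. Their summed counts were 334 and 352 CPM in control and 363 and 371 CPM with GNC, a log2 ratio of 0.10. A split of reads between the genes leaves this sum unchanged, but reads dropped or counted more than once would not. That sum was -0.03 with medians set equal between libraries, so its direction depended on the scaling.

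The make-up of the family within a library does not depend on a scaling that uses the same factor for all genes of a library. It could change with a scaling that varies with the level of a gene, with the exon lengths used or with a split of reads. Per kilobase of annotated exons, sams-1 made up 21.3% of the 4 genes in both control libraries, but 16.99% and 16.1% with GNC. The share of sams-5 was 20.8% and 20.1% in control and 26.5% and 25.99% with GNC. The share of sams-4, the largest, was 34.0% and 34.3% in control and 34.7% and 34.9% with GNC, while sams-3 had 23.9% and 24.3% in control and 21.8% and 23.0% with GNC. The groups therefore did not overlap in any of the 4 shares, and the sams-1 and sams-5 shares differed most. The shares make up a whole, so they cannot vary independently of each other. In CPM, 36.5% of all genes tested lay higher and 34.5% lower without overlap. Nothing is read from the absence of overlap, here or in the ratios given below. The ratio of sams-4 to sams-1 on this scale was 1.60 and 1.61 in control and 2.04 and 2.16 with GNC.

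**Figure D2:**
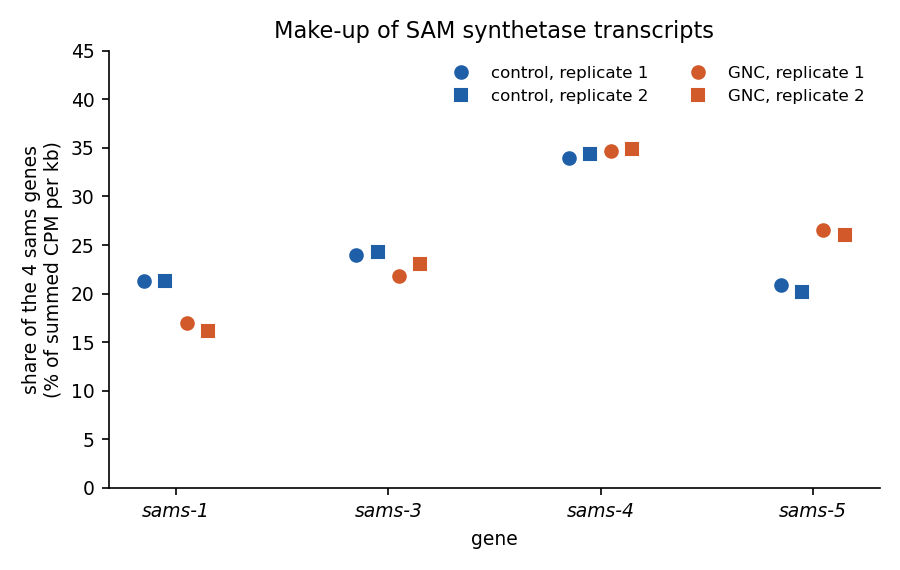
Share of each SAM synthetase gene in the summed CPM per kilobase of annotated exons of the 4 sams genes (vertical axis, %), for each library; blue is control, orange is GNC, circles are replicate 1 and squares replicate 2. The share of sams-1 is lower and that of sams-5 higher in both GNC libraries than in both control libraries.

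By the same 4 libraries, the genes whose pattern lay nearest to that of sams-1 were C30H6.8, tag-340 and E01A2.5. The measure was the Euclidean distance of log2 CPM centred over the libraries, which was 0.013, 0.014 and 0.014. Among the 9305 genes compared, all with a mean of at least 10 CPM, 789 lay within 0.1 of sams-1, so the pattern over 4 libraries is shared by many genes.

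Remethylation and removal of SAH. The 3 genes that return homocysteine to methionine and clear SAH were all lower in both GNC libraries. So were 57.3% of all genes with a mean of at least 50 CPM. In the main setting, the log2 fold changes of the 3 genes were close to each other, while their levels were not. The gene metr-1 (WBGene00010988, chromosome II, 10926561 to 10931077) encodes methionine synthase. Its normalized counts were 226 and 206 CPM in control and 165 and 162 CPM with GNC. The log2 fold change was -0.40 (standard error 0.06), or 24.3% less, and the control libraries differed from each other by more than the GNC libraries did.

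The gene mthf-1 (WBGene00015512, chromosome II, 7773880 to 7777827) encodes methylenetetrahydrofolate reductase, which makes the folate that methionine synthase uses. It had 247 and 250 CPM in control and 199 and 192 CPM with GNC. Both GNC libraries were well below both controls, with a log2 fold change of -0.34 (standard error 0.06). The gene ahcy-1 (WBGene00019322, chromosome I, 6836390 to 6838142) encodes adenosylhomocysteinase, the enzyme that splits SAH, which otherwise inhibits methyltransferases. It was the most abundant of the 10 genes, with 997 and 972 CPM in control and 770 and 751 CPM with GNC, a log2 fold change of -0.37 (standard error 0.07). After expression-dependent offsets, an alternative chosen after seeing the data, it was -0.14, against -0.27 for metr-1 and -0.20 for mthf-1. The ratio of ahcy-1 to metr-1 per kilobase of exons was 11.3 and 12.1 in control, and both GNC libraries lay between these values. The ratio of ahcy-1 to the 4 sams genes did not overlap, at 3.72 and 3.43 in control and 2.58 and 2.46 with GNC.

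Phosphoethanolamine methyltransferases. The enzymes PMT-1 and PMT-2 act one after the other to methylate phosphoethanolamine to phosphocholine, the precursor of phosphatidylcholine. The gene for the first step, pmt-1 (WBGene00022781, chromosome II, 5278137 to 5282525), had 152 and 158 CPM in control and 164 and 156 CPM with GNC. The groups overlapped, with a log2 fold change of 0.04 (standard error 0.06). The gene for the later steps, pmt-2 (WBGene00018811, chromosome V, 4628580 to 4635266), had 53.3 and 56.3 CPM in control and 66.6 and 67.9 CPM with GNC. Both GNC libraries were higher, with a log2 fold change of 0.29 (standard error 0.06), or 22.7% more. The ratio of pmt-2 to pmt-1 per kilobase of exons was 0.419 and 0.425 in control and 0.485 and 0.520 with GNC, and it did not overlap between the groups.

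Arginine methyltransferases. PRMT-1 makes most asymmetric dimethylarginine in the worm and is known to methylate DAF-16, the FOXO factor whose role in the action of GNC the study examined. The gene prmt-1 (WBGene00013766, chromosome V, 20267369 to 20269711) had 731 and 754 CPM in control and 475 and 493 CPM with GNC. This was the largest difference among the 10 genes in the main setting, with a log2 fold change of -0.62 (standard error 0.06), or 34.8% less, and it lay outside the range from -0.48 to 0.77 that held the middle of all genes tested, from the 10th to the 90th percentile. PRMT-5 makes symmetric dimethylarginine. Its gene, prmt-5 (WBGene00016408, chromosome III, 5230555 to 5234607), had 71.0 and 70.7 CPM in control and 63.2 and 71.3 CPM with GNC. The groups overlapped because GNC replicate 2 lay above both controls, and the log2 fold change was -0.08 (standard error 0.07). The ratio of prmt-1 to prmt-5 per kilobase of exons was 20.5 and 21.2 in control and 14.9 and 13.8 with GNC, without overlap.

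**Figure D3:**
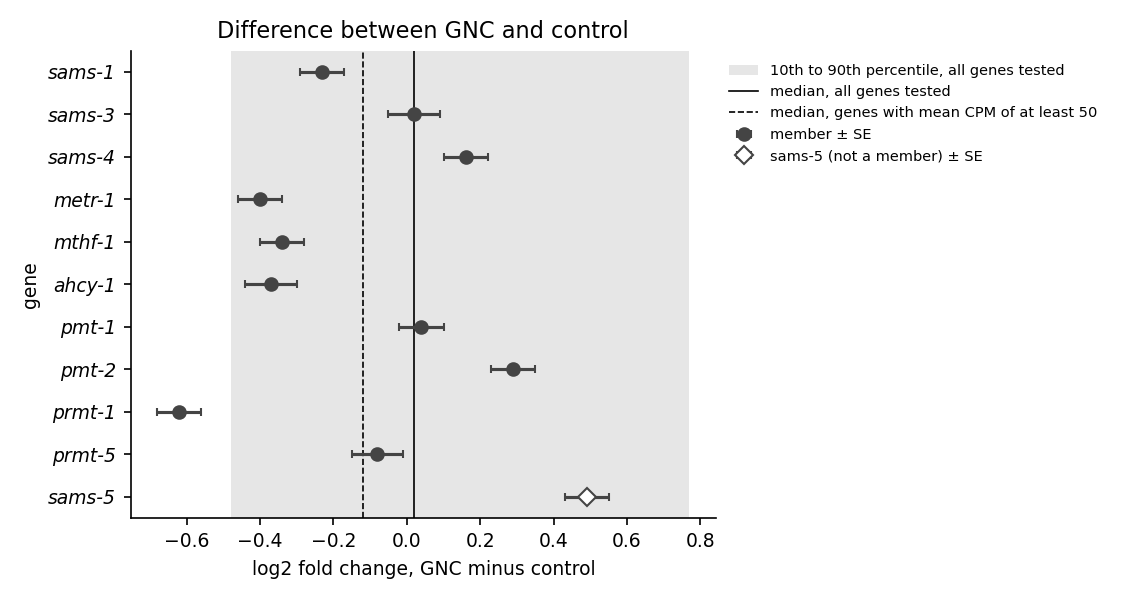
Log2 fold change (GNC minus control, horizontal axis) with its standard error for the 10 genes (filled circles) and sams-5 (open diamond), against the range from the 10th to the 90th percentile of all genes tested (grey) and the medians of all genes (solid line, 0.02) and of genes with a mean of at least 50 CPM (dashed line, -0.12). The value of prmt-1, -0.62, lies outside the grey range, and the other 9 genes lie inside it.

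The sizes of these differences depended on how the libraries were scaled. Over all genes, the median was 0.02 on the log2 scale with TMM, 0.10 with upper quartile scaling, 0.12 with library totals and -0.11 with medians set equal between libraries. The values of sams-1, metr-1, mthf-1, ahcy-1 and prmt-1 stayed negative and those of sams-4 and pmt-2 positive in all 13 alternatives tried. These alternatives used the same libraries on which the genes were selected, which favours a stable sign, so nothing is read from that stability. For sams-1 they ranged from -0.36 to -0.13, for sams-4 from 0.03 to 0.26, for pmt-2 from 0.16 to 0.40 and for prmt-1 from -0.75 to -0.41. The values of sams-3, pmt-1 and prmt-5 changed sign between scalings, with ranges from -0.11 to 0.13, from -0.09 to 0.16 and from -0.21 to 0.03, so no direction is given for them.

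**Figure D4:**
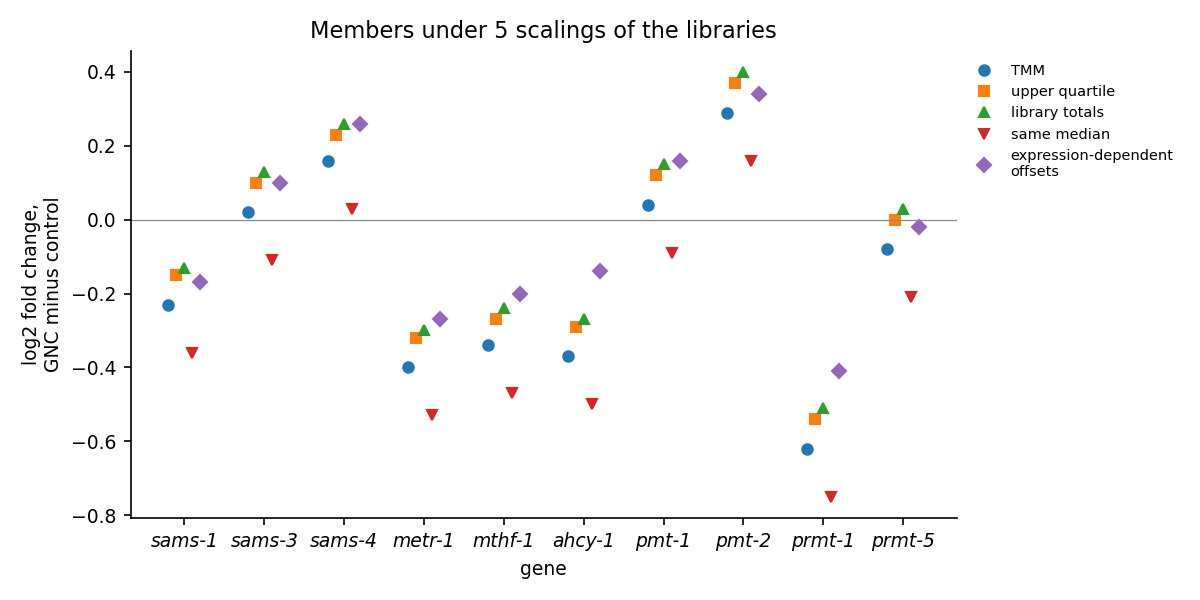
Log2 fold change (GNC minus control, vertical axis) of the 10 genes under 5 scalings of the libraries, with 1 symbol for each scaling. The symbols of prmt-1, mthf-1, metr-1, ahcy-1 and sams-1 all lie below 0, those of pmt-2 and sams-4 above 0, and those of sams-3, pmt-1 and prmt-5 on both sides.

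Levels of different genes can be compared only per length, and the lengths behind the deposited FPKM values differ from the annotation. The length implied by FPKM, count and library total was from 0.97 to 2.43 times the annotated exon length of the 10 genes, and in 4 of them (sams-3, sams-4, ahcy-1 and pmt-1) it exceeded the span of the gene in the same table. For pmt-1 it was 4568 bases, against 1879 bases of annotated exons and a span of 4389 bases. The order of levels is therefore given as CPM per kilobase of the exons in the WBcel235 annotation. In the control libraries ahcy-1 was highest at 633 to 649, followed by prmt-1 at 572 to 590. The next were mthf-1 at 90.2 to 91.3, pmt-1 at 80.9 to 84.1, sams-4 at 59.4 to 63.2 and metr-1 at 52.2 to 57.2. The lowest were sams-3 at 41.8 to 44.7, sams-1 at 37.2 to 39.2, pmt-2 at 33.9 to 35.8 and prmt-5 at 27.8 to 27.9 CPM per kilobase, and no neighbours in this order overlapped. In the GNC libraries, pmt-1 stood above mthf-1. There metr-1 stood no higher than 41.8, below sams-3 (42.3 to 45.7) and pmt-2 (42.3 to 43.2), whose values overlapped. This order depends on the length used. By the deposited FPKM values with GNC, pmt-1 (37.1 and 35.3) stood below mthf-1 (78.2 and 75.1). By the same values, metr-1 (43.3 and 42.4) stood above pmt-2 (38.98 and 39.7) and sams-3. In control, pmt-1 stood below sams-4 and metr-1 by FPKM. Which lengths are closer to the transcripts present was not tested.

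The rest of the pathway was examined in 9 lists of genes, written by function and without the 10 members, of which 124 genes were tested. With edgeR's FDR, again over the whole table, 20 of the 124 rose and 31 fell, where the background was 19.8% and 20.5% of all genes, or 13.2% and 39.2% of those with at least 50 CPM. The median log2 fold change was -0.03. At that FDR, 2 genes were at least 2-fold higher and 1 at least 2-fold lower, where the background was 4.97% and 2.23% of all genes tested. The call of 1 of the 2 higher genes, gcsh-2, rested on 1 library, as described below. Without GNC replicate 1, 11 genes were higher. With library totals in place of TMM, 34 rose and 19 fell, and with medians set equal between libraries 9 rose and 45 fell, so the split between the directions depended on the scaling.

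In the list of other SAM synthetase and methionine cycle genes, sams-5 rose and mel-32 fell among 8 genes tested. The gene mel-32 encodes serine hydroxymethyltransferase, which feeds the folate cycle, and had 268 and 261 CPM in control and 198 and 204 CPM with GNC (log2 fold change -0.40, standard error 0.06, adjusted p = 0.000549 from edgeR's test). The cofactor reductase gene mtrr-1, which keeps methionine synthase active and is named after its values were seen, had 117 and 110 CPM in control and 107 and 110 CPM with GNC, and its log2 fold change of -0.06 did not pass the test (adjusted p = 0.414 from edgeR's test).

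In the folate cycle list, 2 of 13 genes rose and 2 fell. Thymidylate synthase, tyms-1, fell from 97.8 and 99.3 CPM to 66.2 and 69.0 CPM (log2 fold change -0.54, adjusted p = 0.00013 from edgeR's test). The call of gcsh-2, which encodes an H protein of the glycine cleavage system and overlaps glb-18, rested on 1 library. It had 46.0 and 47.2 CPM in control, 139 CPM in GNC replicate 1 and 51.7 CPM in GNC replicate 2, and its log2 fold change of 1.03 (adjusted p = 0.0324 from edgeR's test) was 0.15 without GNC replicate 1 (adjusted p = 0.296).

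Transsulfuration draws homocysteine off toward cysteine, and in this list 5 of 17 genes rose and 3 fell. The changes named by rule were in cysteine synthase-like genes, which form a family between which reads could be split. The gene cysl-2 fell from 37.3 and 39.4 CPM to 23.8 and 20.9 CPM (log2 fold change -0.78, adjusted p = 0.000195 from edgeR's test), and cysl-3 had a log2 fold change of -0.49. The less abundant cysl-4 rose from 4.02 and 2.45 CPM to 7.64 and 5.86 CPM (log2 fold change 1.07, adjusted p = 0.00621 from edgeR's test). The gene of the first enzyme of the route, the cystathionine beta-synthase cbs-1, named after its values were seen, had 170 and 183 CPM in control and 205 and 210 CPM with GNC (log2 fold change 0.23, adjusted p = 0.0124 from edgeR's test). The genes cbs-2 and cth-2, also named after their values were seen, overlapped between the groups (adjusted p = 0.974 and 0.669 from edgeR's test).

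Among the 14 genes of propionate breakdown and vitamin B12, 1 rose and 2 fell. The gene alh-8, whose enzyme ends the propionate shunt, fell from 767 and 926 CPM to 578 and 560 CPM (log2 fold change -0.57, adjusted p = 0.000882 from edgeR's test), while hphd-1, another enzyme of the shunt, rose from 16.4 and 16.3 CPM to 21.7 and 21.4 CPM (log2 fold change 0.40, adjusted p = 0.00829). The gene acdh-1 starts the shunt, is known to be strongly induced when vitamin B12 is low, and is named after its values were seen. It had 22 and 44 counts in control and 26 and 26 counts with GNC, and did not pass the test (adjusted p = 0.238 from edgeR's test).

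In the list of phosphatidylcholine and SBP-1 genes, 3 of 22 genes rose and 4 fell. The choline kinase gene ckb-2 rose from 20.6 and 18.2 CPM to 31.7 and 31.0 CPM (log2 fold change 0.69, adjusted p = 0.000409 from edgeR's test), and the nuclear receptor gene nhr-8 rose from 16.9 and 14.6 CPM to 28.1 and 25.5 CPM (log2 fold change 0.77, adjusted p = 0.000467). The gene sbp-1, named after its values were seen, had 86.9 and 92.5 CPM in control and 105 and 106 CPM with GNC (log2 fold change 0.23, adjusted p = 0.0108 from edgeR's test). The 4 genes that fell, also named after their values were seen, were pssy-2 (log2 fold change -0.48), cept-2 (-0.38), lpin-1 (-0.34) and pod-2 (-0.18).

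Among other methyltransferases, the genes for histone lysine methyltransferases had 2 of 20 genes higher and 9 lower, with a median log2 fold change of -0.22. Of these 20 genes, 12 had a mean of at least 50 CPM, and 7 of the 12 were lower, where the background at that level was 39.2% with a median of -0.12. Nothing particular to the list is read from these counts. The list included set-25, which encodes a histone H3 lysine 9 methyltransferase and fell from 31.7 and 39.3 CPM to 24.8 and 23.1 CPM (log2 fold change -0.57, adjusted p = 0.00279 from edgeR's test). The gene set-9 fell from 205 and 218 CPM to 147 and 164 CPM (adjusted p = 0.000757), although reads could be shared with its close copy set-26. Of the other arginine methyltransferase genes, prmt-3 fell among 4 tested (log2 fold change -0.25, adjusted p = 0.0179 from edgeR's test), and this did not hold under 7 alternatives. The gene with the next smallest adjusted p there, prmt-6, had 1.21 and 1.93 CPM in control and 1.42 and 1.15 CPM with GNC and did not pass the test.

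In the list of small molecule, protein and RNA methyltransferases, 3 of 22 genes rose and 9 fell. Of the 22, 8 had a mean of at least 50 CPM, and 5 of the 8 were lower, against the same background of 39.2%. The RNA methyltransferase gene nsun-2 fell from 162 CPM in both control libraries to 124 and 121 CPM (log2 fold change -0.40, adjusted p = 0.000402 from edgeR's test). The gene icmt-1, whose enzyme methylates the prenylated end of proteins, rose from 57.9 and 57.4 CPM to 78.9 and 83.2 CPM (log2 fold change 0.49, adjusted p = 0.000304). The catechol-O-methyltransferase-like gene comt-4 fell from 5.83 and 8.61 CPM to 2.75 and 2.59 CPM (log2 fold change -1.43, adjusted p = 0.000868). In the polyamine list, where decarboxylated SAM is used, 3 of 7 genes rose and 1 fell. The fall was in the arginase gene argn-1, from 106 and 115 CPM to 65.3 and 70.0 CPM (log2 fold change -0.71, adjusted p = 6.75e-05 from edgeR's test), and the ornithine decarboxylase gene odc-1 rose from 166 and 163 CPM to 191 and 206 CPM (log2 fold change 0.27, adjusted p = 0.00562).

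**Figure D5:**
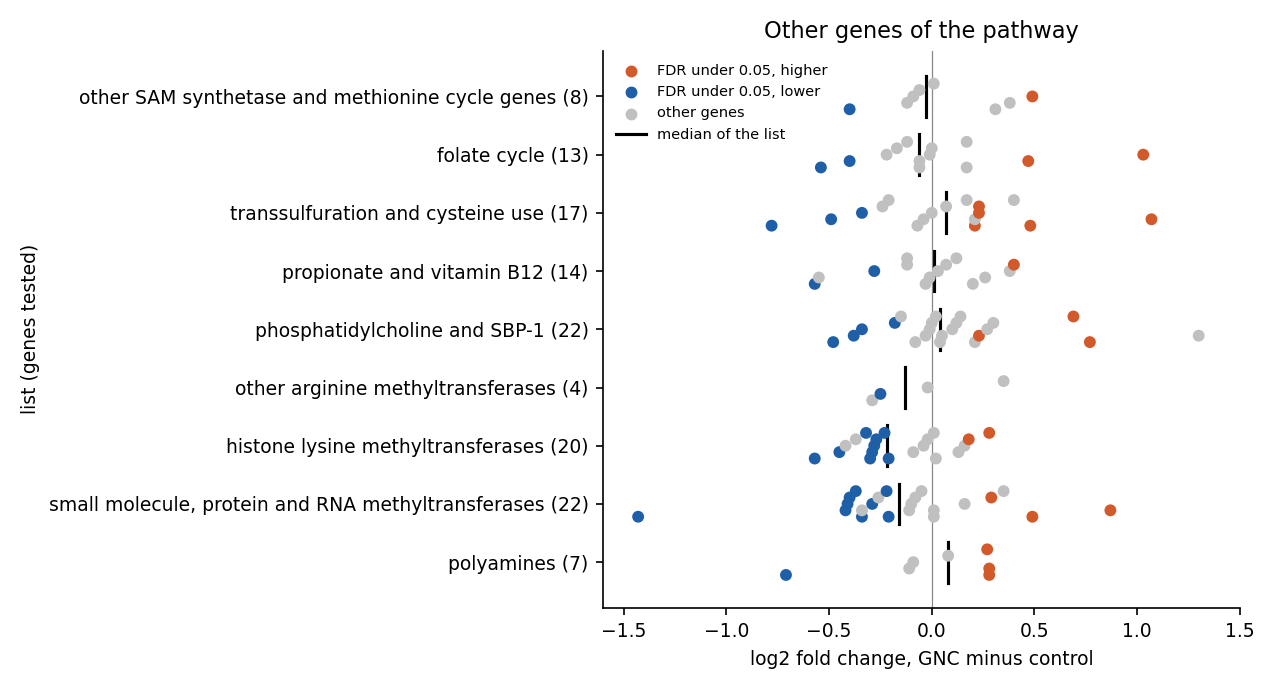
Log2 fold change (GNC minus control, horizontal axis) of each tested gene in the 9 lists of other pathway genes, with 1 point for each gene, orange or blue where the gene rose or fell at an FDR under 0.05, and a black bar at the median of the list. Genes on both sides of 0 passed the test in every list except that of the other arginine methyltransferases, and the median of the histone lysine methyltransferase genes lies at -0.22.

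Markers of several tissues differed between the groups in the same libraries. At an FDR under 0.05, 20.5% of all genes tested were lower and 19.8% higher. Of those with a mean of at least 50 CPM, 39.2% were lower and 13.2% higher. Nothing is read about the tissues from the counts of markers. Of 10 germline markers, 7 were lower and 1 was higher at that FDR. Among them, 9 had a mean of at least 50 CPM, of which 6 were lower and 1 was higher. The summed level of the germline markers was 2915 to 2916 CPM in control and 2346 to 2434 CPM with GNC. Of 10 sperm markers, 6 were higher, with 263 to 268 CPM in control and 347 to 366 CPM with GNC. Of 9 intestine markers, 3 were higher and 4 lower, with 3477 to 3920 CPM in control and 2571 to 2686 CPM with GNC, a sum that consists mostly of the vitellogenin (yolk protein) genes. The body wall muscle sum (1759 to 2018 and 1930 to 1994 CPM) and the neuron sum (810 to 936 and 932 to 942 CPM) overlapped between the groups. The hypodermis sum was 160 to 173 CPM in control and 183 to 185 CPM with GNC, with dpy-7, rol-6 and bli-1 at no more than 10 counts in any library, and the embryo sum was 82.5 to 88.1 and 71.3 CPM, with med-1 and hlh-27 at no more than 10 counts. The part of these differences in the values of the 10 genes was not tested.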

How the data were processed

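The authors deposited 1 table with raw fragment counts per gene and FPKM values for the 4 libraries. The submitters' processing notes name CASAVA 1.8, TopHat2 2.1.0, Cuffdiff and the build WBcel235. The counter and the use of strand are not given in the sources used here, so reads of overlapping genes are uncertain. Among the members, sams-3, sams-4 and mthf-1 overlap a neighbour on the other strand by 24, 21 and 35 bases. Of the pathway genes named by rule, gcsh-2, tyms-1, cysl-2, cysl-3, alh-8, ckb-2, nhr-8, set-25, comt-4 and argn-1 also overlap another gene. Positions are those of the deposited table, and of the 45040 genes also found in the annotation, 61.6% had the same coordinates there.

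Counts were filtered (filterByExpr), scaled by TMM and tested with the quasi-likelihood F-test of edgeR 4.0.16 (R 4.3.3), in a model of treatment alone, with Benjamini-Hochberg adjustment over 16341 genes. The study's thresholds are an FDR under 0.05 and a 2-fold change. The procedure was tested on simulated data with few changed genes, as many up as down, and the same dispersion for every gene. That setting differs from these data, so the simulation does not show which scaling is right here. The common biological coefficient of variation was 6.67%. Standard errors are the log2 fold change divided by the root of the F statistic. Alternatives used DESeq2 1.42.0, limma 3.58.1 on log2(FPKM + 0.1), other scalings, other filters, a replicate block and each library left out.

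The members and lists were chosen with earlier results of these data known. Of 141 symbols in the 9 pathway lists, 128 genes matched, some by the ID of a newer symbol. Beside the members, the genes named from each list are those called at least 2-fold, up to 3, and, where fewer than 2 were called, up to 2 with the smallest adjusted p. No protein or promoter sequence was used here, so the planned protein identities were not computed.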

Additional observations from a re-analysis of the deposited data

How the results depend on the processing

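Expression-dependent offsets, and the background of genes with at least 50 CPM, were chosen after seeing the data. The median log2 fold change of the 10 genes was -0.15 with TMM, -0.08 with upper quartile scaling, -0.05 with library totals, -0.28 with the same median, -0.08 with expression-dependent offsets, -0.12 without a filter and -0.05 with limma on FPKM. Relative to the median of all genes it was -0.17 with TMM, upper quartile scaling, library totals, the same median and no filter, -0.15 with limma on FPKM and -0.07 with expression-dependent offsets. Without each library in turn it ranged from -0.19 to -0.12. The group then left with 1 library is assumed to vary like the other group.

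Among the 10 genes, 1 was higher and 5 lower at an FDR under 0.05. The higher count was 2 with upper quartile scaling, library totals, at least 10 counts in every library and limma on FPKM, 3 with expression-dependent offsets, and 0 with the same median in edgeR, where 1 gene was higher at an unadjusted p under 0.05 (DESeq2 gave 1 at its FDR). The lower count was 6 with the same median and 4 with upper quartile scaling and library totals. It was 3 with expression-dependent offsets, without a filter and with limma on FPKM. Leaving out each library gave 1 to 2 higher, with 2 without control replicate 2, and 4 to 5 lower. These counts rest on the values the genes were selected on and are a description.

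Of the other pathway genes, 20 were higher and 31 lower. The higher count was 10 with DESeq2, 34 with library totals, 9 with the same median and 6 without a filter, and 11 to 18 when each library was left out, lowest without GNC replicate 1. The lower count was 45 with the same median, 19 with library totals, 9 without a filter and 11 with limma on FPKM, and 24 to 28 when each library was left out. The causes were not tested. The pathway genes named by rule were chosen for a 2-fold call or the smallest adjusted p in the main fit of these same libraries. That choice favoured values that stay on their side of the threshold, so nothing is read from how many did. Values of prmt-6, which was never called, are among those that stayed. Of 260 values of the named pathway genes under alternatives, 239 kept their side of the threshold and 21 lost it, and no called gene reversed.

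The log2 ratio of the summed sams counts was 0.10 with TMM, 0.17 with upper quartile scaling, 0.20 with library totals and -0.03 with the same median, and 0.06 to 0.14 when each library was left out.

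Over all genes, 812 were called higher and 364 lower. The counts were 3238 and 3356 with no fold threshold, 551 and 511 with the same median, 1091 and 280 with library totals, 506 and 504 with expression-dependent offsets, and 565 and 185 without a filter. The balance between both directions moved with the scaling. Leaving out each library gave 696 to 972 higher and 298 to 376 lower.

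Libraries that share a replicate number showed no common deviation from their group means (r = 0.043 over genes, which are no replicates). With the replicate block, 828 genes were higher and 365 lower, and among the 10 genes 2 were higher and 5 lower.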

Other observations

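The lengths behind the deposited FPKM values were compared with the annotation for every gene with at least 100 counts in each library, a check chosen after seeing the data. Of 10376 such genes, 700 (6.75%) had an implied length above the span that the same table gives for the gene. Among the 10175 of them with annotated exons, the implied length was 1.0 times the annotated exon length at the median and 1.41 times at the 90th percentile. The value for pmt-1, 2.43 times, and that for sams-3, 1.58 times, lay above that percentile. Because the same length enters all 4 libraries, it cancels in a ratio between groups but not in a comparison between genes.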
